A study of Mus musculus with 27 samples.

Results

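Long noncoding transcript regions without a gene name were measured in mouse bone marrow-derived macrophages (BMDM) stimulated through Toll-like receptors (TLR). The microarray carries probes named only by a chromosome, a start, an end and a strand, laid on stretches from which long noncoding RNA was thought to be transcribed. A region on 1 strand was taken as a member when 1 or more of its probes stood well above background on 2 or more arrays of any condition. Of 4429 such names on the array, 3026 (68.3%) passed, and they drew on 6282 of 15604 region probes. Members came from 2402 distinct regions, of which 624 had members on both strands. There were 1517 members on the forward and 1509 on the reverse strand. Their log2 level was the mean of the deposited log2 values of the probes that passed, and the choice used only detection, not a change between conditions. Coordinates are those of the array files, on mouse build mm9.

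Cultures were grown from the marrow of female C57BL/6 mice in L929-conditioned medium. Naive cells received no ligand, acute cells received 1 ligand for 4 h, and re-stimulated cells received a ligand for 24 h, were washed and were given the same ligand again for 4 h. The ligands were LPS (100 ng/ml), Pam3CSK4 (100 ng/ml), Poly(I:C) (10 µg/ml) and CpG, whose concentration the labels give as 100 µM and the study's methods as 1 µM. Each of the 9 conditions had 3 labelled replicates from separate cultures, which the methods describe both as different mice and as independent pools of marrow. Deposited values were used for 25 arrays, so LPS re-stimulated (replicates 1 and 2) and Pam3CSK4 acute (replicates 1 and 3) had 2 arrays each and every other condition had 3. A naive culture had neither the 24 h treatment nor the wash, so re-stimulated and naive cells differed in handling as well as in ligand.

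LPS of Gram-negative bacteria is sensed by TLR4, bacterial lipopeptides such as Pam3CSK4 by TLR2, double-stranded RNA such as Poly(I:C) by TLR3, and unmethylated CpG DNA by TLR9. All these receptors switch on inflammatory genes, and TLR3 and TLR4 also drive a type I interferon programme through the adaptor TRIF. Cells that meet a ligand again often answer with less of some transcripts, which is called tolerance, and with more of others. Long noncoding RNAs have no long reading frame, are often expressed at low levels, and include host transcripts of microRNAs and transcripts made near the genes they regulate.

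The array probes on which most of the findings turned are 60 bases long and are shown 5′ to 3′ as the array files give them. The first pair reads both strands of 1 region on chromosome 16, and its capitals mark the 50 bases over which the probes are complementary.
chr16:84702353-84710928_F: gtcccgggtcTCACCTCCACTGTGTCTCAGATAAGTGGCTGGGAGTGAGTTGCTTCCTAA
chr16:84702353-84710928_R: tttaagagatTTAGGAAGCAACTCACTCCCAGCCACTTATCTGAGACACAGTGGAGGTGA
The next are from regions that rose after acute stimulation, and these printed probes hold neither of the repeats marked in the last set. Another used probe of chr2:128211990-128215223 holds a run of 5 G.
chr16:84708695-84708806_F: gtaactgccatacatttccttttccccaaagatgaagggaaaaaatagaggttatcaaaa
chr10:69669025-69686275_R: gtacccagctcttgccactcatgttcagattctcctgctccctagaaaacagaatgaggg
chr17:64063362-64066067_R: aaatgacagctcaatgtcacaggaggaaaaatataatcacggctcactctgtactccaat
chr2:128211990-128215223_R: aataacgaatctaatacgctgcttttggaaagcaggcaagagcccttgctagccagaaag
The last are probes of regions led by Poly(I:C) or raised on re-stimulation, with runs of 5 or more G and repeats of TG of at least 6 bases in capitals.
chr16:21247571-21296945_R: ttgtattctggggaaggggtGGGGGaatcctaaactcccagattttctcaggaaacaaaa
chr1:72297489-72298058_R: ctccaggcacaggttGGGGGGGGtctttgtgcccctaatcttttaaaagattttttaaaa
chr4:10407110-10724958_R: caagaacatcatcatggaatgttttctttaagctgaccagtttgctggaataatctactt
chr10:69842010-69842465_F: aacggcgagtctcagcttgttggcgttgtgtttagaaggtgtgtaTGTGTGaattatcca

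Between 22.3% and 41.0% of region probes were well above background on 24 of the arrays, but 66.6% on naive replicate 3, which also had the most other probes above background (77.7%). The acute LPS arrays lay on slides of their own and the other arrays shared 3 slides, 1 for each replicate number, so slide and stimulus cannot be told apart in any comparison with acute LPS. The comparison of naive with LPS re-stimulated cells does not have this limit. All 10 macrophage markers with a probe were above background on every array, as were 2 of 4 T cell and 1 or 2 of 4 B cell markers. Of the other lists, the log2 of the summed level of 3 dendritic cell markers was 4.17 to 5.67 in naive cells and 9.60 to 10.69 after acute LPS, with 1 or 2 of them above background in both. It was 6.61 to 8.33 after acute Poly(I:C), 7.43 to 7.88 after acute CpG and 6.41 to 6.43 on LPS re-stimulation. For 4 fibroblast markers, at most 2 of them above background, it was 6.44 to 7.08 in naive and 8.77 to 9.46 in LPS re-stimulated cells. For 4 T cell markers it was 9.54 to 9.99 in naive and 10.97 to 11.30 in acute LPS cells. The sum of 5 neutrophil markers spread from 11.85 to 13.50 over the naive arrays, 3 erythroid markers had at most 1 above background, and 3 mast cell markers had between 0 and 3. Their part in the results was not tested. In such bulk samples fewer cells of a type and less RNA per cell cannot be told apart.

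Most members were faint. The median of their mean log2 level over 25 arrays was 5.18, against 8.25 for the other names that passed detection, and 61.2% of the other probes on the array passed against 40.3% of region probes. Regions were between 62 and 538251 bases long with a median of 11706.5. A member rested on 1 probe in 1418 cases, and in 1119 of these the array held further probes of the same name that did not pass. There were 862 members with all their probes used. Because 1145 members overlapped another on the same strand, the 3026 names covered 2358 separate stretches and are not independent of each other. The letters AATAAA, the usual polyadenylation signal, were held by 3.84% of member probes, by 3.97% of region probes that did not pass and by 13.7% of other passing probes.

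Detection was broad for most members and narrow for a few. Members detected in all 9 conditions numbered 1780, and those detected in exactly 1 numbered 359. Of the latter, 183 were seen only after acute LPS and 98 only in naive cells, but 96 of those 98 counted naive replicate 3 among their arrays. At the edge of the rule, the 427 members above background on at most 2 arrays of a condition had probes with a median log2 level of 3.63, and the 1161 names that missed it with 1 array had 2.73. Acute LPS had 2722 members detected and LPS re-stimulation 2010. Without naive replicate 3, the rule gave 2936 members.

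Acute LPS and Poly(I:C) raised more members than they lowered. A member was called where limma's p, adjusted by Benjamini-Hochberg over every name on the array that could be tested, was below 0.05 and the groups differed by at least 1.5-fold. After LPS, 587 of 2907 members tested were called, 461 higher and 126 lower, where 27.4% of all names were called, 13.4% higher and 14% lower. After Poly(I:C), 112 of 2718 were called, 101 higher and 11 lower, where 5.79% of all names were called, 3.66% higher and 2.13% lower. After CpG, 63 of 2626 were called, 45 higher and 18 lower, where 5.35% of all names were called, 2.85% higher and 2.5% lower. The stimulated and naive groups did not overlap in 1122 members for LPS, where they did not in 47.9% of all names, in 611 for Poly(I:C), where the share was 29.6%, and in 530 for CpG, where it was 31.5%. The shares of members called, 20.2%, 4.12% and 2.40%, did not exceed those of all names. Among called names, 78.5% of members and 45.7% of other names were higher after LPS, 90.2% and 60.4% after Poly(I:C), and 71.4% and 52.2% after CpG. Counting only members detected in both groups of a comparison, 340 were higher and 104 lower after LPS, 73 and 10 after Poly(I:C), and 32 and 14 after CpG. A member that passed detection only in the stimulated group could hardly be called lower. The median log2 change was 0.32 over members and −0.02 over all names after LPS, 0.11 and −0.10 after Poly(I:C), and 0.08 and −0.07 after CpG.

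That balance moved with the scaling. When each array was scaled to its 75th percentile in place of quantile normalization, the counts higher and lower were 278 and 204 after LPS, 76 and 46 after Poly(I:C), and 34 and 70 after CpG, so members lowered by CpG then outnumbered those raised. Scaled to the median, CpG gave 37 higher and 5 lower. With the replicate number as a block, CpG called 24 members, 18 higher and 6 lower. After Pam3CSK4 limma called 0 of 2625 members and 0% of all names at the adjusted threshold. At an unadjusted p under 0.05 it had 187 members and 2397 names in all. With slide as a random block in 1 fit of all conditions 128 members were called for Pam3CSK4 (88 higher, 40 lower). The median log2 change of members after Pam3CSK4 was 0.15, and 0.00 over all names, and in 558 members the 2 groups did not overlap, against 31.9% of all names.

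The counts also rested on single arrays. For LPS the 587 fell to 358 without naive replicate 2 and to 318, 247 and 377 without LPS replicates 1, 2 and 3. For Poly(I:C) the 112 fell to 28 and 29 without naive replicates 1 and 2 and to 20 and 15 without Poly(I:C) replicates 1 and 2, and rose to 177 (113 higher, 64 lower) without naive replicate 3. For CpG the 63 fell to 13 and 8 without naive replicates 1 and 2 and to 11, 9 and 33 without CpG replicates 1, 2 and 3, and rose to 106 (51 higher, 55 lower) without naive replicate 3, the array with the unusual detection. Of the members called with at least 2 probes, all probes moved the same way in 324 of 354 after LPS, 67 of 74 after Poly(I:C) and 36 of 37 after CpG. Of the members called higher, 189, 35 and 21 rested on 1 probe.

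**Figure D1:**
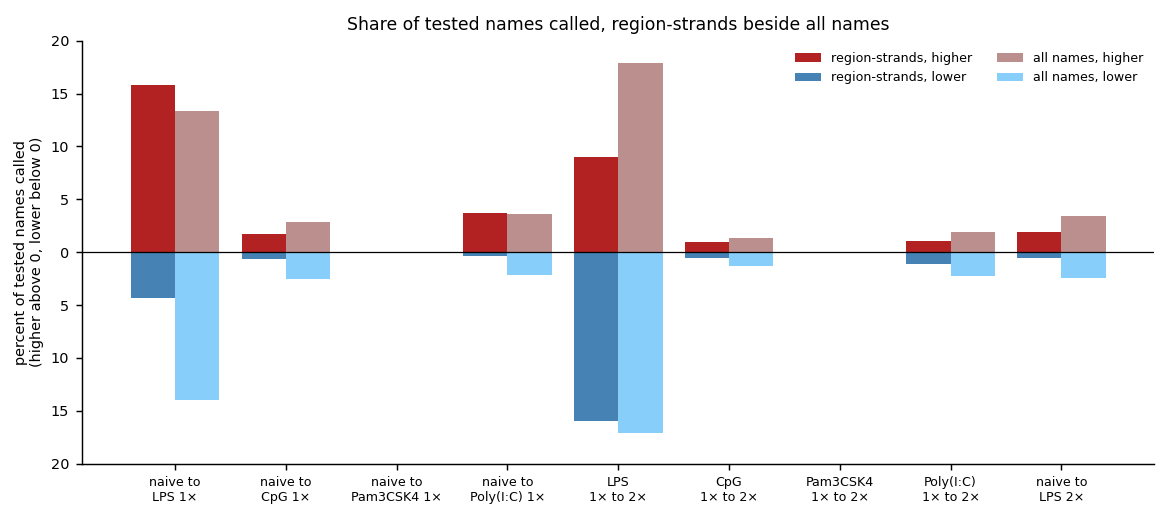
Percent of names called higher (up) and lower (down) in each of 9 comparisons, for members and for all names tested. After acute LPS 15.9% of members were called higher and 4.33% lower, against 13.4% and 14% of all names, and no name was called in either Pam3CSK4 comparison.

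The largest rise after LPS, CpG and Poly(I:C) was in a group of names at one place on chromosome 16, between Ncam2 and Mrpl39, where RefSeq's gene order (assembly GRCm38.p6, names only) puts Mir155hg and Mir155, the host transcript of a microRNA known to be induced in activated macrophages and the microRNA itself. The single probe of chr16:84708695-84708806, forward strand, read 2.51, 2.18 and 3.39 in naive cells, where it was above background on 1 of 3 arrays. It read 11.33, 11.94 and 12.51 after acute LPS and 11.59, 11.38 and 11.52 after CpG. It read 11.62, 11.07 and 10.00 after Poly(I:C) and 10.82 and 8.95 after Pam3CSK4. Every stimulated array lay far above every naive array. The log2 change by limma was 9.23 ± 0.42 (SE) for LPS (adjusted p = 0.000212), 8.80 ± 0.34 for CpG (adjusted p = 0.000694), 8.20 ± 0.51 for Poly(I:C) (adjusted p = 0.00183) and 7.19 ± 0.68 for Pam3CSK4 (adjusted p = 0.307). The Pam3CSK4 change rested on 2 arrays and did not pass, in a comparison with no name called.

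On re-stimulation the same probe read 8.79 and 8.94 with LPS, 10.80, 9.76 and 10.92 with CpG, 10.17, 9.01 and 10.19 with Poly(I:C), and 8.51, 7.90 and 10.40 with Pam3CSK4. The 2 LPS arrays lay below all acute LPS arrays and above all naive arrays. The change from acute was −3.06 ± 0.35 on the log2 scale for LPS (adjusted p = 0.00211), and the level remained 6.17 above naive (adjusted p = 0.00846). For CpG and Poly(I:C) the differences from acute were −1.0 and −1.1 (adjusted p = 0.154 and 0.233), so neither passed.

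All 3 probes were used for the other names at that place. The reverse strand of chr16:84702353-84710928 read 4.21, 3.01 and 3.23 in naive cells and 10.65, 11.16 and 11.56 after LPS, a change of 7.64 ± 0.39 (adjusted p = 0.000267), with 7.18 after CpG and 6.49 after Poly(I:C). It fell by 3.30 ± 0.30 on LPS re-stimulation (adjusted p = 0.00106). The forward strand of the same region read 2.85, 3.15 and 3.14 in naive cells and 8.47, 8.83 and 10.22 after LPS, a change of 6.13 ± 0.46 (adjusted p = 0.000718). Both strands thus gave a signal here, and their printed probes pair with each other over most of their length. The probes of chr16:84707202-84707748, forward strand, were not well above background on any naive array, so its level was at least 118-fold higher after LPS, 71.0-fold after CpG and 45.1-fold after Poly(I:C). Folds given as 'at least' set the mean of the higher group against the lowest signal still above background. Folds given 'as fitted' are the limma change itself, set against levels that were not well above background, and are no measured size. Mrpl39, the nearest gene with a probe and a mitochondrial ribosomal protein, changed by 0.17 after LPS (adjusted p = 0.48).

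**Figure D2:**
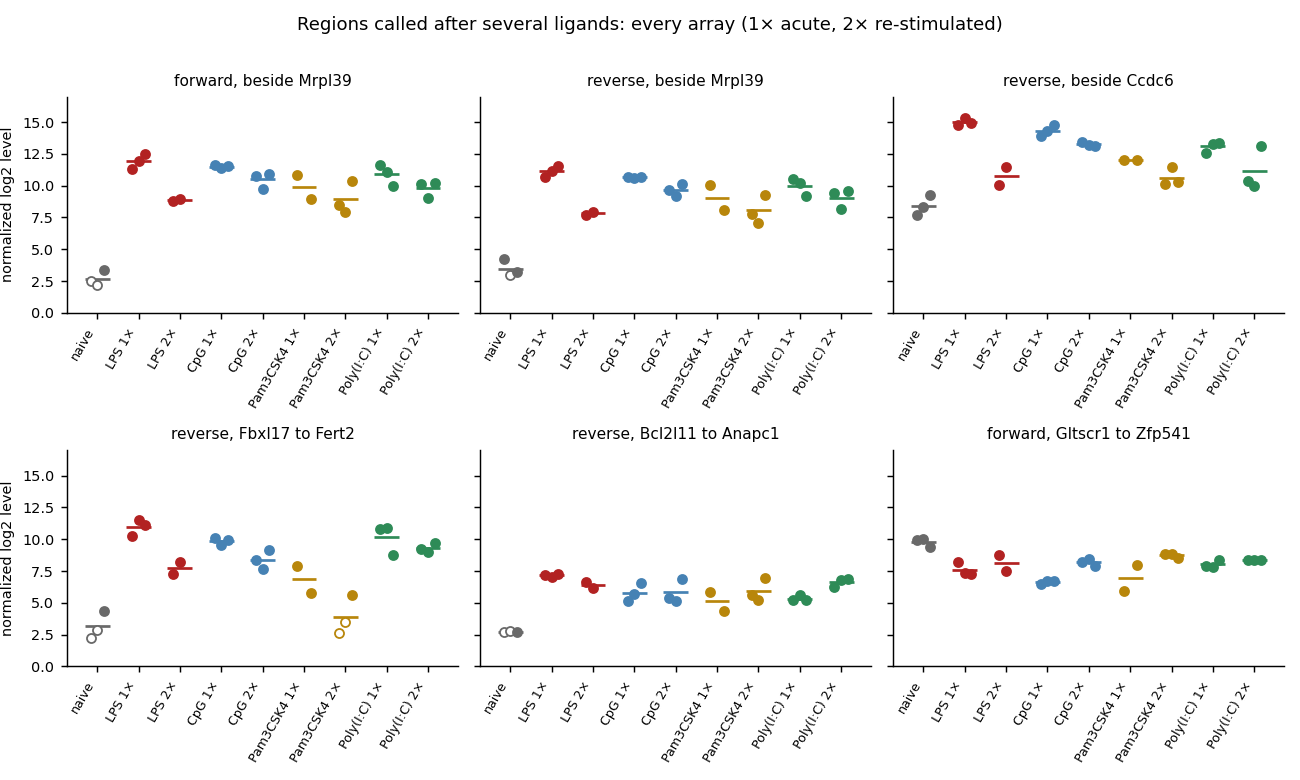
Deposited log2 level of 6 members on each of 25 arrays, by condition (1×, acute, and 2×, re-stimulated). Filled points are arrays where the probes were well above background, open points where they were not, and bars are group means. In the first 5 panels every acute LPS array lies above every naive array, and chr7:16633756-16634410 runs the other way.

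Other members called higher after all of LPS, CpG and Poly(I:C) are described here with their values in each, chosen after the values were seen. The 3 comparisons use the same naive arrays. On chromosome 10, the reverse strand of chr10:69669025-69686275 lies 13.716 kb from Ccdc6, a gene known for fusions with RET. Its 1 passing probe read 7.67, 8.28 and 9.30 in naive cells and 14.78, 15.30 and 14.90 after LPS. It read 13.89, 14.28 and 14.76 after CpG and 12.60, 13.28 and 13.38 after Poly(I:C). The stimulated arrays did not overlap the naive ones, with changes of 6.58 ± 0.43 (adjusted p = 0.000504), 5.90 ± 0.46 (adjusted p = 0.00542) and 4.67 ± 0.46 (adjusted p = 0.00787) for these ligands in that order. LPS re-stimulated arrays read 10.05 and 11.45, a change of −4.25 ± 0.43 (adjusted p = 0.00141). The 4 other probes of this name never passed detection, and their group means lay between 1.60 and 4.47. Only 1 probe of this region of 17251 bases thus gave the signal, and where that signal comes from was not tested.

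On chromosome 17, the reverse strand of chr17:64063362-64066067, far from any gene with a probe (Fert2 at 422.242 kb), behaved alike. Its 1 passing probe of 3 read 2.24, 2.83 and 4.40 in naive cells and 10.29, 11.48 and 11.10 after LPS. It read 10.11, 9.58 and 9.95 after CpG and 10.78, 10.92 and 8.75 after Poly(I:C). No stimulated array overlapped a naive one. The changes were 7.80 ± 0.60 (adjusted p = 0.00081), 6.72 ± 0.56 (adjusted p = 0.00584) and 6.99 ± 0.79 (adjusted p = 0.011). Re-stimulation gave 7.23 and 8.25 with LPS, a change of −3.22 from acute (adjusted p = 0.0037), and 2.60, 3.52 and 5.62 with Pam3CSK4 against 7.92 and 5.79 after acute Pam3CSK4.

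Another cluster lay on chromosome 2 between Bcl2l11, which encodes the pro-apoptotic protein BIM, and Anapc1, where RefSeq's order also places Morrbid, a long noncoding RNA known to restrain Bcl2l11 in myeloid cells. There, probes of the reverse strand of chr2:128142035-128142481 share a stretch of 25 bases with a probe that the array names Gm14005. That name rose by 3.09 after LPS. The member read 2.68, 2.77 and 2.74 in naive cells and 7.21, 7.02 and 7.25 after LPS. It read 5.17, 5.72 and 6.53 after CpG and 5.19, 5.60 and 5.23 after Poly(I:C). The groups were well apart, with changes of 4.43 ± 0.16 (adjusted p = 0.000152), 3.08 ± 0.36 (adjusted p = 0.0151) and 2.61 ± 0.18 (adjusted p = 0.00239). It was called lower on re-stimulation with LPS (6.64 and 6.15, a change of −0.77, adjusted p = 0.042) and rose further with Poly(I:C) to 6.28, 6.79 and 6.88, by 1.31 ± 0.23 (adjusted p = 0.0416).

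Other members on the same strand fell further on LPS re-stimulation. The names chr2:128137419-128141735 and chr2:128217275-128217972 rose by 4.17 and 3.97 after LPS, and changed by −2.35 and −3.3 on LPS re-stimulation. The nearby chr2:128211990-128215223 read 4.39, 4.23 and 5.68 in naive cells, 8.91, 8.44 and 11.14 after LPS, and 5.47 and 4.66 on LPS re-stimulation. It rose by 4.73 ± 0.77 (adjusted p = 0.00739) and fell by 4.43 ± 0.79 (adjusted p = 0.0084), to 0.30 above naive (adjusted p = 0.765). Neither Bcl2l11 nor Anapc1 was called after any acute ligand.

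Further names belong to the same set. The forward strand of chr11:119254413-119296960 rose by 4.02 after LPS (adjusted p = 0.000633), 2.39 after CpG (adjusted p = 0.0418) and 3.56 after Poly(I:C) (adjusted p = 0.00092). It fell by 4.20 on LPS re-stimulation. Slc26a11, an anion transporter gene 12.135 kb away, fell by 3.87 after LPS. RefSeq's order was not resolved between the flanking genes Slc26a11 and A730011L01Rik, so whether these probes lie in another annotated gene was not read. On chromosome 1, the reverse strand of chr1:175705225-175717250, among the interferon-inducible Ifi204 and Mndal genes, rose by 3.38, 2.11 and 3.33. Its probes share stretches with other regions nearby, so these names cannot be told apart. The forward strands of chr16:4867322-4874772 and chr17:79959134-79972206 rose by 2.38 and 1.65 after LPS. The first of these is a mean over 3 of 10 probes, of which 1 went from 7.93 to 13.19. The others used went from 2.59 to 3.87 and from 6.50 to 7.10. The reverse strand of chr8:110197171-110206546 rose by 1.55 after LPS and was higher again on LPS re-stimulation, by 1.65 over acute (adjusted p = 0.0168) and 3.20 over naive (adjusted p = 0.0153).

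Members that fell after acute stimulation were fewer and mostly moved less. Lowered by all of LPS, CpG and Poly(I:C) was the forward strand of chr7:16633756-16634410, which, with 3 of 3 probes used, read 9.96, 10.01 and 9.36 in naive cells and 6.48, 6.73 and 6.70 after CpG. It read 8.21, 7.35 and 7.29 after LPS and 7.88, 7.82 and 8.36 after Poly(I:C). All were below every naive array, by 3.13 ± 0.24 for CpG (adjusted p = 0.00527), 2.16 for LPS (adjusted p = 0.0059) and 1.75 for Poly(I:C) (adjusted p = 0.0228). The 2 Pam3CSK4 arrays, at 5.93 and 7.95, differed from naive by −2.83 (adjusted p = 0.307). On CpG re-stimulation it read 8.20, 8.49 and 7.91, higher than acute by 1.56 ± 0.21 (adjusted p = 0.032).

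The reverse strand of chr16:4871449-4874336, 0.427 kb from Fam100a, read 6.06, 6.69 and 6.61 in naive cells, 4.15, 3.65 and 4.22 after LPS and 3.65, 4.13 and 4.41 after Poly(I:C). It fell by 2.45 after LPS (adjusted p = 0.00198) and 2.39 ± 0.28 after Poly(I:C) (adjusted p = 0.0119), and Fam100a fell by 1.53 and 1.15. Likewise, the reverse strand of chr15:86041745-86042157 fell by 2.33 ± 0.25 after Poly(I:C) (adjusted p = 0.00924) and 1.82 after LPS, and Cerk, the ceramide kinase gene 70.913 kb away, by 1.49 and 2.83. After CpG the reverse strand of chr17:48072598-48073137 fell by 2.74 ± 0.39 (adjusted p = 0.0239), to below background on every array, which is 6.67-fold as fitted. After LPS the forward strands of chr5:14943275-14944205 and chr17:71183978-71185384 fell by 3.87 ± 0.99 (adjusted p = 0.0325) and 3.02 ± 0.44 (adjusted p = 0.00524). The first of these was already spread from 9.10 to 4.84 over the naive arrays, and its probes share a stretch with another region.

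Poly(I:C) was set against CpG in 1 limma fit of all 9 conditions, since both lie on the same slides. Of 2477 members tested 134 differed, 111 higher after acute Poly(I:C) and 23 lower, where 5.47% of all names were called, 3.44% higher and 2.03% lower. The count fell to 80 and 67 without CpG replicates 1 and 2 and to 52 and 61 without Poly(I:C) replicates 1 and 2.

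The largest rises with Poly(I:C) were in a pair of reverse-strand names on different chromosomes. The 1 passing probe of chr16:21247571-21296945, 24.347 kb from the ephrin receptor gene Ephb3, read 3.71, 3.40 and 2.78 in naive cells and 11.83, 11.71 and 8.95 after acute Poly(I:C). It read 11.16, 8.70 and 9.24 on Poly(I:C) re-stimulation, and on the arrays of the other ligands between 2.26 and 5.24. The change from naive was 7.53 ± 0.81 (adjusted p = 0.00982), and acute Poly(I:C) was 6.49 ± 0.81 above acute CpG (adjusted p = 9.62e-05). The 1 passing probe of chr1:72297489-72298058, 7.781 kb from Pecr, a peroxisomal reductase gene, read 6.29, 3.64 and 4.20 in naive cells, 13.03, 12.85 and 10.31 after acute Poly(I:C) and 12.41, 10.24 and 10.32 on re-stimulation. It rose by 7.35 ± 0.98 (adjusted p = 0.0172) and was 7.34 ± 0.87 above acute CpG (adjusted p = 5.99e-05). Every Poly(I:C) array lay above every other array for both.

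These probes share letters, as the capitals in the printed sequences show. The first holds a run of 5 G and the second a run of 8 G. Their values followed each other with r = 0.97 over 25 arrays, which share slides and conditions. Among 3962 probes with an SD over 1, the 10 most alike to each one all held GGGG, and in each case 7 of the 10 held GGGGG. How many of the 3962 held GGGG is not given here. Their r was from 0.972 to 0.980 for the first and from 0.975 to 0.983 for the second. Only 3 and 4 of them were region probes. The probes of these regions that did not pass detection had group means between 2.17 and 4.21.

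Over all member probes the same letters went with the same pattern, which was noticed after the values were seen. GGGGG, searched for on the strand of the probe only, was in 250 member probes (3.98%) and in 2.94% of all probes that passed. Of member probes with it, 20.4% rose by 2 or more on the log2 scale after acute Poly(I:C), against 3.21% of those with neither it nor TGTGTG. After acute LPS these shares were 2.8% and 5.32%, and after acute CpG 0% and 1.61%. Over all probes after Poly(I:C), 2.97% rose so far where the longest run of G was 2, 2.72% at 3, 3.49% at 4, 9.71% at 5 and 29.4% at 6. The share rose at runs of 5 and again at 6. On Poly(I:C) re-stimulation 15.6% of member probes with GGGGG stood 2 or more above naive.

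By name, 41 of 219 members with GGGGG in a probe were called higher after acute Poly(I:C) than after acute CpG and 0 lower, against 70 of 2258 without. Names of every kind did likewise, with 123 of 815 against 544 of 18554. Counting only members with neither GGGGG nor TGTGTG, the 134 became 86 (66 higher, 20 lower) and the 112 called after Poly(I:C) against naive became 81 (74 higher, 7 lower). The part of these letters in the Poly(I:C) response was not tested.

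Members higher after Poly(I:C) than after CpG did not all hold such runs. The reverse strand of chr11:53592946-53637922, 1.07 kb from Irf1, a transcription factor gene of the interferon response, used 5 of 5 probes, none with GGGGG. Of these, 1 was nearly flat, with means of 7.53 in naive cells, 7.85 after Poly(I:C) and 7.63 after LPS. The probes also share a stretch with another region on the same strand. The mean over the 5 probes read 4.24, 3.95 and 4.47 in naive cells and 7.24, 7.06 and 6.29 after Poly(I:C). It read 7.00, 7.03 and 7.43 after LPS, and 4.91, 4.89 and 5.81 after CpG. Poly(I:C) and LPS arrays lay above all CpG arrays. It rose by 2.64 ± 0.30 after Poly(I:C) (adjusted p = 0.0115) and 2.93 ± 0.22 after LPS (adjusted p = 0.000768), but by 0.99 after CpG (adjusted p = 0.135), and acute Poly(I:C) stood 1.66 ± 0.30 above acute CpG (adjusted p = 0.00291). Irf1 itself rose with all of them, by 3.78, 3.62 and 3.11. The values of this member were looked at because of the neighbour, after they were seen.

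Another, the reverse strand of chr9:31834945-32015745 used 1 of 6 probes, which holds TGTGTG and no run of G over 2. It read 3.08, 2.33 and 2.71 in naive cells and 6.08, 7.06 and 5.53 after Poly(I:C), and rose by 3.52 ± 0.43 (adjusted p = 0.0133), to 3.27 above acute CpG (adjusted p = 0.0002). It fell by 3.14 ± 0.51 on Poly(I:C) re-stimulation (adjusted p = 0.0353), 8.79-fold as fitted, to below background.

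**Figure D3:**
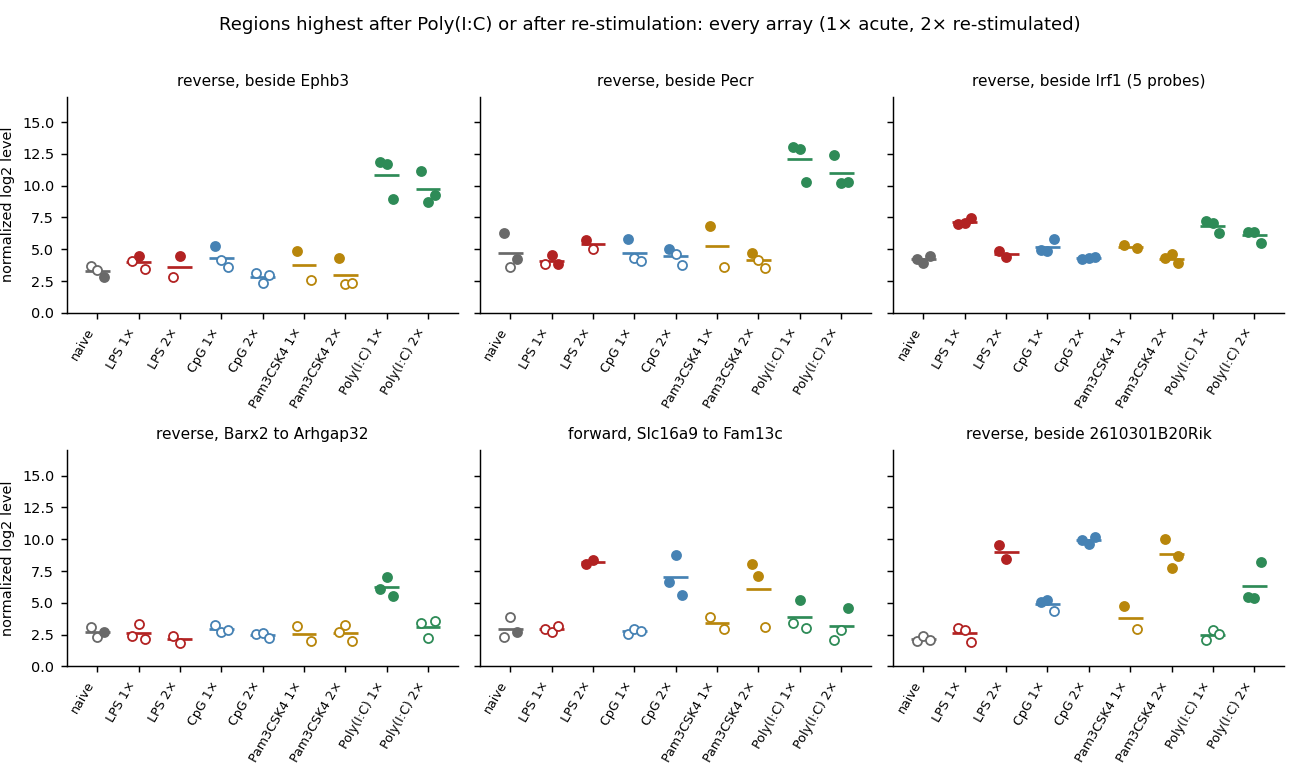
Deposited log2 level of 6 members on each of 25 arrays, drawn as in the plot of acute changes. The chr16:21247571 and chr1:72297489 names are high only on Poly(I:C) arrays, chr11:53592946 on acute LPS and on Poly(I:C) arrays, chr9:31834945 on acute Poly(I:C) arrays, and the last 2 on re-stimulated arrays of LPS, CpG or Pam3CSK4, the very last also on those of Poly(I:C).

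Re-stimulation was compared with the first stimulation for each ligand. For LPS, 688 of 2762 members were called, 248 higher and 440 lower, where 35% of all names were called, 17.9% higher and 17.1% lower. The median log2 change was −0.18 over members and −0.01 over all names, and 36.0% of called members were higher against 52.8% of other called names. Among members detected in both groups 207 were higher and 242 lower, so most of the excess of falls was in members that were not detected in both. With 75th percentile scaling the counts were 173 higher and 601 lower. The 688 fell to 423 without acute LPS replicate 2 and to 408 and 320 without re-stimulated replicates 1 and 2, and slide and stimulus cannot be told apart here.

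For CpG, 35 of 2318 members were called, 23 higher and 12 lower, where 2.56% of all names were called, 1.31% higher and 1.26% lower. For Poly(I:C), 56 of 2570 were called, 28 in each direction, where 4.23% of all names were called, 1.95% higher and 2.28% lower. For Pam3CSK4 limma called 0 of 2321 members and 0% of all names, with 202 members and 2386 names at an unadjusted p under 0.05, and 101 members with slide as a random block. The small counts turned on single arrays. The 35 for CpG became 2, 1 and 63 without acute replicates 1, 2 and 3, and 0, 0 and 1 without the re-stimulated ones. The 56 for Poly(I:C) became 0, 0 and 96 without acute replicates 1, 2 and 3, and 0, 0 and 150 without the re-stimulated ones. Under median scaling CpG had 62 higher and 15 lower, and Poly(I:C) had 44 and 28.

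LPS re-stimulated cells were also set against naive cells, with which they share slides. Here 65 of 2626 members were called, 50 higher and 15 lower, where 5.87% of all names were called, 3.45% higher and 2.43% lower. With the replicate number as a block 212 were called (114 higher, 98 lower), and with 75th percentile scaling 62 higher and 82 lower. The 65 fell to 1 and 8 without naive replicates 1 and 2 and to 0 without either LPS re-stimulated replicate, and rose to 235 (135 higher, 100 lower) without naive replicate 3. Set directly against each other, the re-stimulation changes of Poly(I:C) and CpG differed in 0 of 2638 members by limma, where 0.0646% of all names were called (0.0397% higher and 0.0248% lower), with 215 members at an unadjusted p under 0.05. That count was 7, 2, 4 and 49 without CpG acute replicate 3, Poly(I:C) acute replicate 3 and Poly(I:C) re-stimulated replicates 2 and 3.

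A few members were far higher on re-stimulation than in naive or acute cells. The largest rise was in the reverse strand of chr4:10407110-10724958, a region of 317849 bases with 1 of 3 probes used. It read 1.99, 2.38 and 2.09 in naive cells, 3.03, 2.90 and 1.93 after acute LPS, and 9.59 and 8.46 on LPS re-stimulation. With CpG it went from 5.07, 5.26 and 4.34 to 9.97, 9.61 and 10.18, and with Pam3CSK4 from 4.72 and 2.95 to 10.01, 7.75 and 8.66. With Poly(I:C) it went from 2.10, 2.90 and 2.52 to 5.46, 5.41 and 8.20. Re-stimulated and acute arrays did not overlap for any ligand. The changes were 6.40 ± 0.46 for LPS (adjusted p = 0.000553, at least 77.4-fold) and 5.03 ± 0.30 for CpG (adjusted p = 0.00973). They were 3.85 ± 0.77 for Poly(I:C) (adjusted p = 0.0494, 14.4-fold as fitted) and 4.97 ± 0.81 for Pam3CSK4 (adjusted p = 0.171). Against naive cells the LPS re-stimulated level was at least 105-fold higher (adjusted p = 0.00698). Its probe holds neither GGGGG nor TGTGTG, and the 10 probes most alike to it, with r from 0.909 to 0.957, held neither.

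Another member of this kind held a TG repeat. The 1 passing probe of chr10:69842010-69842465, forward strand, read 2.98, 2.71 and 3.19 after acute LPS and 8.07 and 8.36 on re-stimulation, and 2.57, 2.95 and 2.81 after acute CpG and 6.65, 8.76 and 5.62 on re-stimulation. It rose by 5.26 ± 0.23 with LPS (adjusted p = 0.000152, 38.3-fold as fitted) and 4.23 ± 0.74 with CpG (adjusted p = 0.0463). It was not well above background on any acute LPS or CpG array, so that neither fitted change is a measured size. On Pam3CSK4 re-stimulation replicates 1 and 2 read 8.05 and 7.08 but replicate 3 read 3.12.

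Its probe holds TGTGTG, which is in 251 member probes (4.00%) and 3.94% of all probes that passed. The 10 probes most alike to it over 25 arrays, with r from 0.958 to 0.971, all held TGTGTG. Of member probes with TGTGTG, 15.1% rose by 2 or more from acute to re-stimulated LPS, against 1.40% of those with neither set of letters, and 14.7% against 1.68% from naive to re-stimulated LPS. For re-stimulated over acute CpG the shares were 7.57% and 0.47%, for Pam3CSK4 6.77% and 0.41%, and for Poly(I:C) 1.59% and 0.92%. By name, 47 of 234 members with TGTGTG were called higher on LPS re-stimulation than after acute LPS, against 201 of 2528 without, and over all names 342 of 1151 against 3347 of 19429. Against naive cells 17 of 226 members with it and 33 of 2400 without were higher. Counting only members with neither set of letters, LPS re-stimulation had 190 higher and 388 lower than acute, and 33 higher and 14 lower than naive. This pattern too was noticed after the values were seen, and the part of these letters in the response was not tested.

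**Figure D4:**
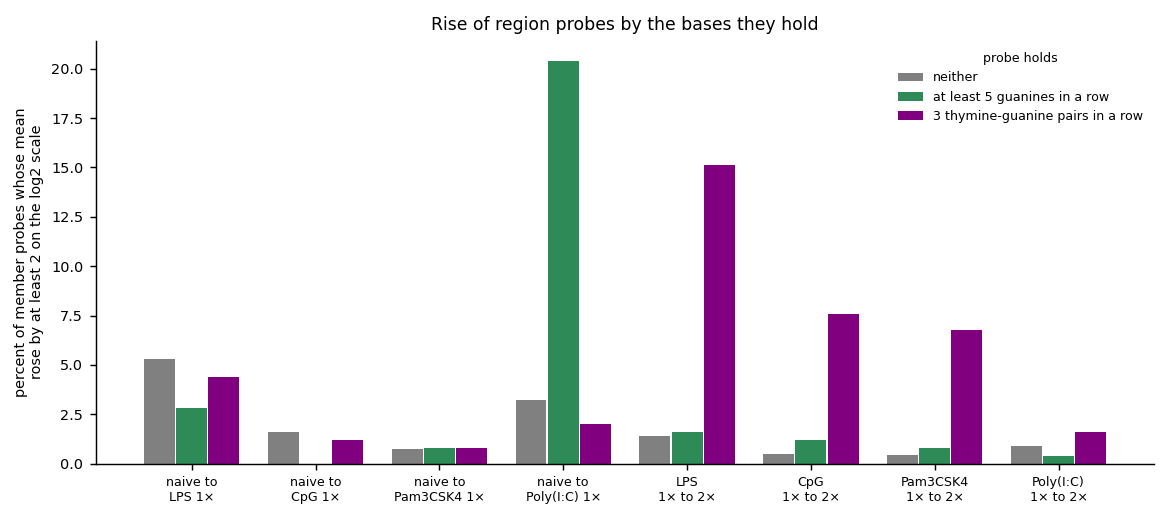
Percent of member probes whose log2 value rose by 2 or more, for probes with GGGGG, with TGTGTG and with neither, in 8 comparisons. Probes with GGGGG stand out after acute Poly(I:C) (20.4%), and probes with TGTGTG in LPS re-stimulated over acute cells (15.1%).

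Near Ptgs2, the gene of the inducible cyclooxygenase, the reverse strand of chr1:152001112-152012796 rose on re-stimulation with Poly(I:C), and RefSeq's order places Ptgs2os2 there, 46.309 kb from the probes of Ptgs2. It used 2 of 3 probes, 1 of them with TGTGTG. It read 2.46, 2.43 and 2.99 in naive cells, 3.43, 3.31 and 2.90 after acute Poly(I:C) and 6.95, 6.94 and 5.84 on Poly(I:C) re-stimulation. The rise was 3.36 ± 0.35 (adjusted p = 0.0196), 10.3-fold as fitted. After a first dose of LPS it had already risen by 2.12 (adjusted p = 0.00702) and of CpG by 2.74 (adjusted p = 0.0273). Ptgs2 rose by 10.17, 10.85 and 5.37 after acute LPS, CpG and Poly(I:C), and by a further 2.57 on Poly(I:C) re-stimulation (adjusted p = 0.023).

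Among members that fell on LPS re-stimulation, the forward strand of chr9:13349094-13352732, 71.462 kb from Maml2, a Notch co-activator gene, went furthest. Its 3 probes read 4.31, 3.46 and 3.22 in naive cells, 8.36, 7.88 and 9.87 after acute LPS and 4.05 and 3.1 on re-stimulation. It rose by 5.04 ± 0.56 (adjusted p = 0.00227) and fell by 5.13 ± 0.61 (adjusted p = 0.00236), to −0.09 from naive (adjusted p = 0.924). After acute CpG and Poly(I:C) it stood 1.45 and 1.47 higher, which did not pass (adjusted p = 0.128 and 0.101), and Maml2 rose by 2.16 after LPS. Next, the forward strand of chr10:93819821-93976621 read 6.80, 6.59 and 7.00 in naive cells, 9.86, 9.69 and 12.01 after LPS and 6.06 and 5.70 on re-stimulation, a fall of 4.64 ± 0.70 (adjusted p = 0.00477).

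The forward strand of chr6:134875724-134931975 stood apart, since its level hardly moved with a first dose and fell with a second. It lies 0.241 kb from Cdkn1b, which encodes the cell cycle inhibitor p27, and RefSeq's order places Lockd there. It read 4.67, 5.76 and 4.40 in naive cells. With LPS it went from 4.85, 4.78 and 4.47 to 1.63 and 2.71, with CpG from 4.77, 5.03 and 5.46 to 3.12, 2.90 and 2.17, and with Poly(I:C) from 3.79, 4.60 and 4.65 to 2.39, 2.73 and 1.87. Acute and re-stimulated arrays did not overlap for these ligands. The changes were −2.53 (adjusted p = 0.00361), −2.35 (adjusted p = 0.032) and −2.02 (adjusted p = 0.0363), at least 4.82-fold, 4.37-fold and 3.47-fold. With Pam3CSK4 it went from 4.26 and 5.23 to 2.60, 3.98 and 2.48.

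Other members named by falls on re-stimulation are given with the ligand that named them. The forward strand of chr2:145501249-145508811, 33.576 kb from the ion exchanger gene Slc24a3, read 5.02, 6.22 and 5.38 in naive cells, 9.13, 9.41 and 7.74 after CpG and 6.21, 6.05 and 5.80 on CpG re-stimulation. It rose by 3.22 ± 0.53 (adjusted p = 0.0315) and fell by 2.74 ± 0.44 (adjusted p = 0.042), and Slc24a3 fell by 2.29 on CpG re-stimulation. With LPS re-stimulation it was also called lower, with a change of −1.46 (adjusted p = 0.0124). The forward strand of chr1:161969026-162001640 fell by 2.93 ± 0.50 on Poly(I:C) re-stimulation (adjusted p = 0.0395), 7.64-fold as fitted, from 6.92, 7.20 and 5.45. It changed by −2.24 on LPS re-stimulation (adjusted p = 0.000961). With Pam3CSK4 the largest fall, of chr15:99762797-99786472 on the reverse strand, was from 8.25 and 7.17 to 3.46, 3.65 and 3.01. It was 20.2-fold as fitted but not called (adjusted p = 0.149). The reverse strand of chr19:5834117-5835940, in the part of chromosome 19 that holds the nuclear noncoding RNAs Malat1 and Neat1, read 9.03, 8.71 and 9.76 in naive cells and 6.59 and 6.72 on LPS re-stimulation, a change of −2.51 (adjusted p = 0.0304). Re-stimulated and acute cells differed by −2.07 with CpG (adjusted p = 0.05) and −2.10 with Poly(I:C) (adjusted p = 0.0577), neither of which passed. This region was chosen after its values were seen. By the probes that bear their names, Malat1 and Neat1 differed from naive by −0.09 and −0.57 on LPS re-stimulation, and neither was called. RefSeq's order was read by name only, so whether this region lies inside either of these genes was not read.

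The values of the 2 strands of a region were weakly correlated. Over 624 regions with members on both, the median correlation over 25 arrays was 0.127, with a range from −0.68 to 0.98. After LPS both strands were called in 31 of 586 regions, in the same direction in 26. The members with the strongest probe signal shared letters with named genes. The reverse probe of chr11:22681800-22707775, with the highest mean log2 level (16.94), shares a stretch of 25 bases with a probe of Rps16, a ribosomal protein gene. Next was the reverse strand of chr7:108209996-108216032 at 16.84, whose probe shares a stretch with Rps29. Of the 20 members with the highest level, 9 shared a stretch with a named gene, where it was 117 of all members.

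Changes of members and of their nearest genes were correlated where they lay close together. A gene probe lay inside the region of 180 members, within 5 kb of 498, between 5 and 50 kb from 1408 and further from 940. The correlation, across regions, of a member's log2 change with that of its nearest gene on the same strand was 0.78 after LPS where the gene probe lay inside (n = 90), 0.44 within 5 kb (n = 253), 0.13 from 5 to 50 kb (n = 569) and 0.08 beyond (n = 346). After Poly(I:C) it was 0.84, 0.28, 0.09 and 0.02, and after CpG 0.73, 0.35, 0.07 and −0.01. For genes on the opposite strand the values after LPS were 0.52, 0.26, 0.16 and 0.16. The points share arrays, neighbouring names share sequence, and a gene can be nearest to several members. All 8 members raised by Poly(I:C) with a gene probe inside had that gene raised too, where 3.66% of all names were called higher. After LPS 13 of 21 did, where 13.4% of all names were called higher. The gene lay on the same strand for 7 of those 8 and for 9 of those 13. Whether such members read the gene's own RNA was not tested.

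**Figure D5:**
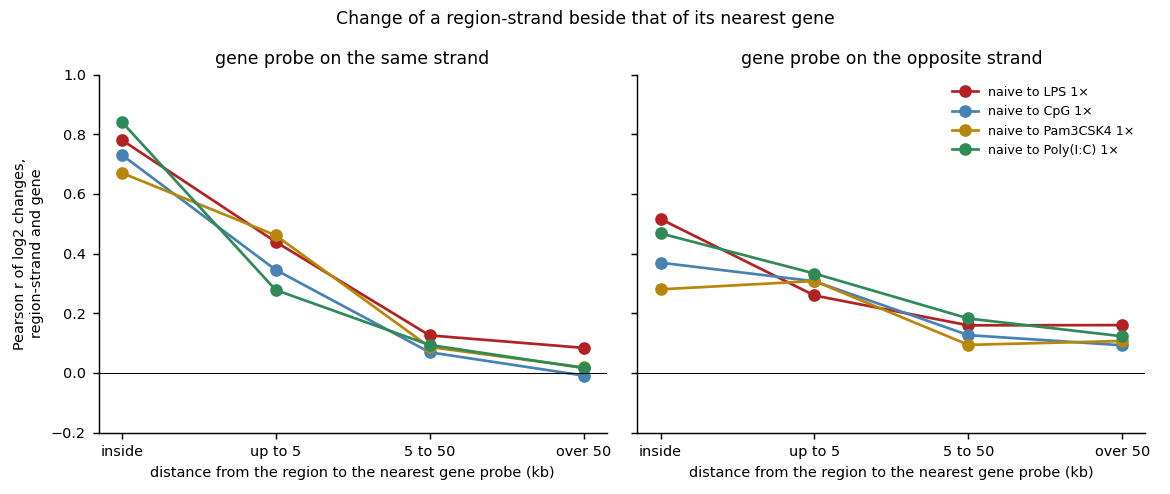
Pearson correlation, across regions, of the log2 change of a member with that of its nearest gene probe, by distance, for genes on the same and on the opposite strand, in 4 acute comparisons. On the same strand after LPS it goes from 0.78 inside the region to 0.08 beyond 50 kb.

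Annotated long noncoding RNAs on the same array gave a comparison. Of 51 on a list, 32 had a probe and 28 passed detection. After LPS 4 were called higher and 3 lower, after CpG 1 and 2, after Poly(I:C) 2 and 1, and after Pam3CSK4 0 and 0. Their median log2 change was −0.21 after LPS and −0.42 after Poly(I:C), where it was 0.32 and 0.11 for the members. AW112010, an interferon-responsive transcript, rose by 5.96 after LPS, 4.70 after CpG and 5.52 after Poly(I:C) and stayed 5.37 above naive on LPS re-stimulation. Malat1 fell by 1.04 after LPS and 1.45 after CpG, and Neat1 by 2.12 after LPS and 1.66 after Poly(I:C). From acute to re-stimulated LPS both were called higher, by 0.95 and 1.55.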

How the data were processed

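Total RNA of BMDM was hybridised with Cy3 to 1-colour Agilent mouse arrays. The deposited log2 values were made by the authors with RMA background correction and quantile normalization in limma, and give neither a depth nor a count, so precision rests on the number of arrays. The deposited scanner intensities gave the detection flag of each probe and the alternative scalings. Deposited values covered 25 arrays, and the scanner files 27. Column medians were between 4.00 and 4.08, and values remade from the scanner files differed from the deposited ones by a median of 0.0355. Region names, strands, probe sequences and mm9 coordinates came from the file headers and probe columns, and gene neighbours from RefSeq gene order (GRCm38.p6) by name only. For some named regions that order was not resolved, so an annotated gene at the same place could be missed.

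Control spots were left out. Probes above background on at least 2 arrays of a condition were averaged by name, and each pair of groups was fitted with limma 3.58.1 (R 4.3.3) over all names tested, with Benjamini-Hochberg adjustment. Calls needed an adjusted p under 0.05 and 1.5-fold. Python 3.11.15, pandas 2.3.3 and numpy 2.4.6 did the rest. On simulated data for naive against Poly(I:C), 34 of 100 names changed by 1.5 log2 and 75 of 100 changed by 3 log2 were called, and 6 of 20316 unchanged names.

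The members, gene lists and tests were chosen with earlier results of these data known. Named regions were, for each acute comparison, the 3 largest rises and 2 largest falls called, and for each re-stimulation the 2 largest of each, or the largest non-overlapping change where none was called. Also named were the 2 highest members. Strand differences in level, also in the rule, set different probes against each other and are not given. One region so named is not reported here. Regions outside this rule are said to be chosen after their values were seen. Samples were grouped by the labels. Same-numbered replicates shared a slide except for acute LPS, and the correlation of their deviations from group means was 0.28 to 0.35 for naive with CpG, 0.36 to 0.44 for naive with Poly(I:C), 0.26 to 0.42 for CpG and 0.30 to 0.46 for Poly(I:C) re-stimulation, and 0.38 to 0.53 for Poly(I:C) with CpG, with 0.49 to 0.54 over 2 pairs for naive with Pam3CSK4 and 0.24 over 2 for its re-stimulation. The fits printed first have no block, and blocked counts are given where they moved by over 1.5 times. The correlation was −0.00 to 0.03 for naive with acute LPS, which shared no slide, and 0.07 to 0.10 over 2 pairs for LPS re-stimulation. For naive with LPS re-stimulated, which did share slides, it was also low, at 0.08 over 2 pairs. Alternatives changed the scaling, background correction, detection filter, averaging, fit, block and arrays.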

Additional observations from a re-analysis of the deposited data

Results flagged for a closer look

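Poly(I:C) and CpG gave different acute changes by the limma contrast in several of the named members. Against acute CpG, acute Poly(I:C) was higher for the reverse strand of chr1:72297489-72298058 (7.34, the probe with 8 G in a row), the reverse strand of chr16:21247571-21296945 (6.49, the probe with 5 G), the reverse strand of chr9:31834945-32015745 (3.27), the forward strand of chr1:161969026-162001640 (1.99) and the forward strand of chr7:16633756-16634410 (1.38, where both ligands lowered the level and CpG lowered it further). It was lower for the reverse strands of chr4:10407110-10724958 (−2.38), chr1:152001112-152012796 (−2.16) and chr16:4871449-4874336 (−1.56).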

How the results depend on the processing

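Counts of members called rose where groups shared 1 estimate of spread and fell without the detection filter; the cause was not tested. With 1 fit over all 9 groups they were 297 (naive to CpG), 69 (Pam3CSK4), 317 (Poly(I:C)), 286 (naive to LPS re-stimulated), and for re-stimulation 101 (CpG), 39 (Pam3CSK4) and 196 (Poly(I:C)). With slide as a random block they were 395, 128, 407, 394, 199, 101 and 305 in that order, and 5 for the difference between re-stimulation changes. With the replicate number as a block they were 379 (naive to LPS), 24 (CpG), 212 (naive to LPS re-stimulated) and 1 (difference between re-stimulation changes), and no other count moved by over 1.5 times. Acute LPS shares only a number with the naive arrays. Without the detection filter they were 288 (naive to LPS), 15 (CpG), 49 (Poly(I:C)), 12 (naive to LPS re-stimulated), 363 (LPS re-stimulation), 0 (CpG) and 12 (Poly(I:C)), and 67 (acute Poly(I:C) to CpG). Median scaling, which moved the median of all names by −0.15 to 0.49, gave 209 (LPS), 9 (Pam3CSK4), 77 and 1 (CpG and Pam3CSK4 re-stimulation) and 80 (acute Poly(I:C) to CpG). The 75th percentile gave 104 (CpG), 19 (CpG re-stimulation) and 144 (naive to LPS re-stimulated). Normexp gave 288 (LPS), 310, 56 and 1 (LPS and CpG re-stimulation and the difference of changes) and 136 (naive to LPS re-stimulated). Probes tested singly gave 116 (CpG), 56 and 103 (CpG and Poly(I:C) re-stimulation) and 106 (naive to LPS re-stimulated). All 27 arrays, scaled anew, gave 86 (LPS re-stimulation), 5 (naive to LPS re-stimulated) and 32 (acute Poly(I:C) to CpG). The arrays so added were LPS re-stimulated replicate 3, with 92.4% of probes above background, and Pam3CSK4 acute replicate 2, with 99.9%. On the latter 22.6% of probes were flagged as non-uniform. No other array had more than 74.9% of probes above background. Leaving out names with GGGGG or TGTGTG, chosen after seeing the data, gave 86 for acute Poly(I:C) to CpG. Leaving out 1 array at a time gave 247 to 798 (LPS), 8 to 106 (CpG), 0 to 0 (Pam3CSK4), 15 to 177 (Poly(I:C)), 0 to 235 (naive to LPS re-stimulated), and for the step from a first to another dose 0 to 150 (Poly(I:C)), 0 to 0 (Pam3CSK4), 0 to 63 (CpG) and 320 to 665 (LPS), with 52 to 178 (acute Poly(I:C) to CpG) and 0 to 49 (difference of changes). For the 45 named changes, those chosen after their values were seen included, 634 alternatives kept direction and call, 10 gained the call, 1 turned and the others lost it. The one that turned was the reverse strand of chr8:110197171-110206546 after LPS, at −0.0097 without the detection filter, which averages in its 4 unused probes. Changes of faint members near background may be understated, which was not tested.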
